A study of Mus musculus with 5 samples.

Results

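The transferases of phase II drug metabolism were examined in mouse liver RNA-seq. The members are genes whose symbols mark them as soluble glutathione transferases (Gst), glucuronosyltransferases of families 1 to 3 (Ugt) or sulfotransferases (Sult). Of 66 rows with such a symbol, 10 were listed at 0 in every liver, which left 56 members of the 18033 rows with any signal and of 33589 rows in all. They are 22 Gst, 19 Ugt and 15 Sult genes. All 5 livers came from male mice, with an age of 6 weeks and a high-fat diet of 4 weeks given. Whether that age is at the start of the diet or at collection is not resolved here. The 2 controls carried floxed Heg1 without Cre (genotype Hegfl/fl), and the 3 knockouts carried the same floxed gene with Lyve1-Cre (Lyve1-Cre;Hegfl/fl). Every group thus shares the floxed allele and the diet. Lyve1-Cre is active in lymphatic and liver sinusoidal endothelium and in some blood cells, whereas hepatocytes predominate in liver. The sample labels name liver as the tissue and the series title speaks of hepatocytes; values are treated as those of whole liver, and RNA of purified hepatocytes would change what the Heg1 value and the markers of other cells mean. The question is what deleting Heg1, which encodes an endothelial receptor, in Lyve1-expressing cells does to RNA levels in the liver of mice on this diet.

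Conjugation makes drugs, hormones, bilirubin and reactive lipid products water-soluble. Glutathione transferases add glutathione to electrophiles, glucuronosyltransferases of the endoplasmic reticulum add glucuronic acid from UDP-glucuronic acid, and cytosolic sulfotransferases add sulfate from the donor PAPS. Hepatocytes hold most of this capacity, and many of the genes are induced through the nuclear receptors CAR and PXR, the aryl hydrocarbon receptor AHR or the stress-responsive factor NRF2, while others differ between male and female mice.

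Levels are given as FPKM, which divides fragments by transcript length and library size. They allow only a rough comparison between genes and between livers, because a shift in RNA composition is not corrected. Their sum was between 797692 and 820498 per liver, and the read depth is unknown. Heg1 had 0.48 and 0.35 FPKM in controls against 0.45, 0.43 and 0.50 FPKM in knockouts, which overlap; its log2 difference was 0.046 (95% interval -0.21 to 0.31), with an exact permutation p of 0.5, the smallest possible being 0.1. A whole-gene value in whole liver checks the deletion only weakly. The labels do not say that each library came from a separate animal, so the p-values reflect how far these libraries differ, which may be technical. The hepatocyte markers were abundant in every liver, with 10 listed genes summing to between 95060 and 112727 FPKM. Hemoglobin and other erythroid transcripts were high in knockout 1, where the list summed to 1329.95 FPKM against 136 to 244 FPKM in the other livers. Differences below are mean log2(FPKM + 1) of knockouts minus that of controls, tested with limma over the 10820 genes with a mean of at least 1 FPKM. Of these genes 0 passed a Benjamini-Hochberg adjusted p of 0.05. At an unadjusted p below 0.05 there were 572 higher (5.29%) and 185 lower (1.71%) genes, a split that became 310 and 362 after median-of-ratios scaling.

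The 56 members summed to 9959.55 and 9807 FPKM in controls against 9915, 9376 and 9083 FPKM in knockouts, between 1.13% and 1.22% of all FPKM. Of the members, 42 reached a mean of 1 FPKM and were tested, 20 of 22 Gst, 15 of 19 Ugt and 7 of 15 Sult genes. The 14 others are given by their values alone. Just inside that limit lay Sult2a7 (mean 1.03 FPKM) and just outside it Ugt1a7c, with 1.10 and 0.64 FPKM in controls against 0.71, 1.01 and 1.05 FPKM in knockouts. Glutathione transferases made up most of the sum. They held 7515 and 7213 FPKM in controls against 7457, 6791 and 6576 FPKM in knockouts. Glucuronosyltransferases held 1655 and 1828 FPKM in controls against 1691, 1713 and 1694 FPKM in knockouts, and sulfotransferases 789 and 766 FPKM in controls against 767, 872 and 813 FPKM in knockouts. In none of the 3 families did the summed level separate the groups. In whole liver, fewer cells of a type and less RNA per cell cannot be told apart.

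**Figure D1:**
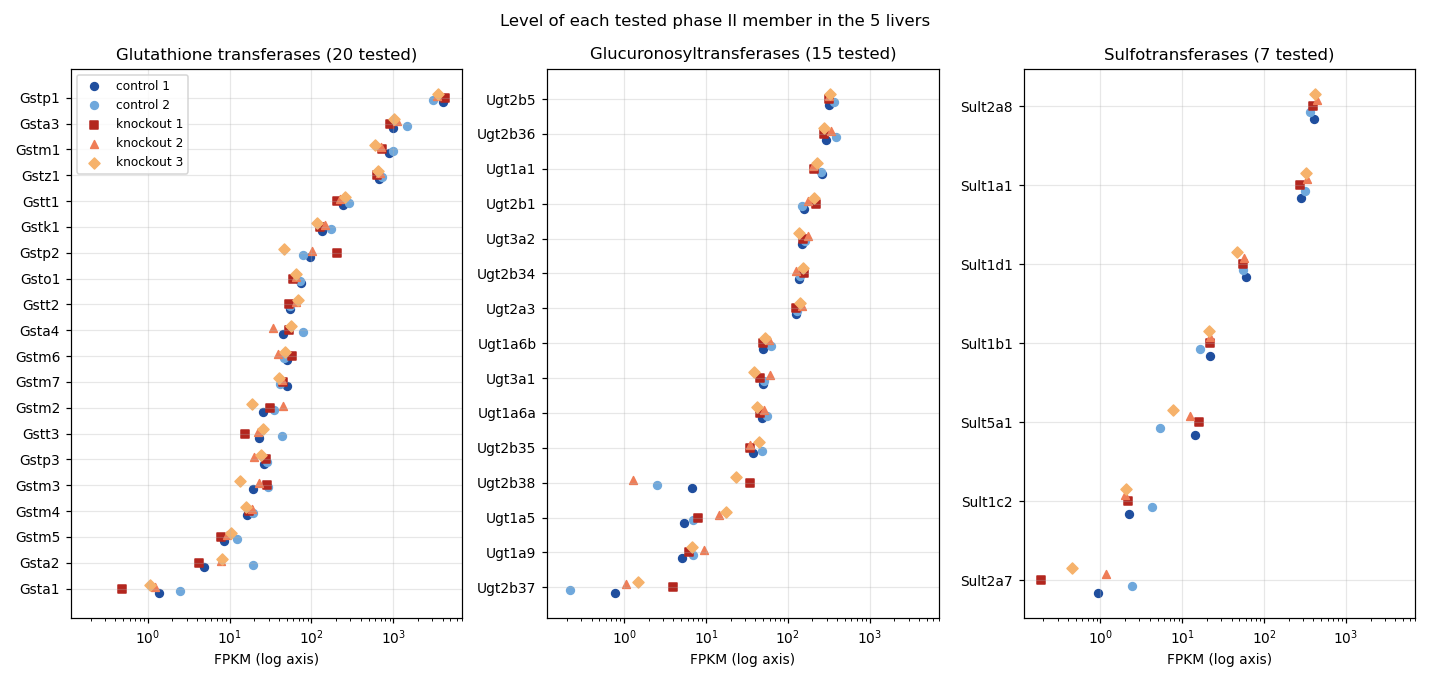
FPKM of the 42 tested members in each liver on a log axis, ordered by mean within the 3 families; dark and light blue circles are controls 1 and 2, and a square, triangle and diamond are knockouts 1, 2 and 3. Gstp1 leads its family at 3017 to 4246 FPKM, and most members vary little, whereas Ugt2b38 spans 1.30 to 34.4 FPKM.

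Across the members, values in knockouts were more often lower than higher, and none passed the test over all genes. Of the 42 tested members 26 were lower in knockouts and 16 higher, with a median difference of -0.10. Of all genes tested 35.8% were lower and 64.2% higher, with a median of 0.06. After median-of-ratios scaling 30 of 42 members and 49.3% of all genes were lower. Most of the lower members were glutathione transferases, with 16 of 20 lower (median -0.19). Glucuronosyltransferases had 7 of 15 lower (median 0.0059) and sulfotransferases 3 of 7 (median 0.044). Members with no overlap between the groups numbered 8, where 25.3% of all genes had none. Of these, 5 were lower (11.9% of members against 6.38% of all genes) and 3 higher (against 18.9% of all genes). At an unadjusted p below 0.05 there were 2 lower members, Gstm1 and Ugt1a1, and 3 higher ones, Ugt2b1, Ugt1a5 and Ugt2b37; among all genes 7.00% lay below it. The smallest limma adjusted p among members was 0.696. Without control 2 the median over members was 0.0022, with 20 of 42 lower, and the median over glutathione transferases was -0.039, with 11 of 20 lower. In that setting the median of all genes was 0.075, with 35.3% lower. Without control 1 the medians were -0.17 and -0.30.

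**Figure D2:**
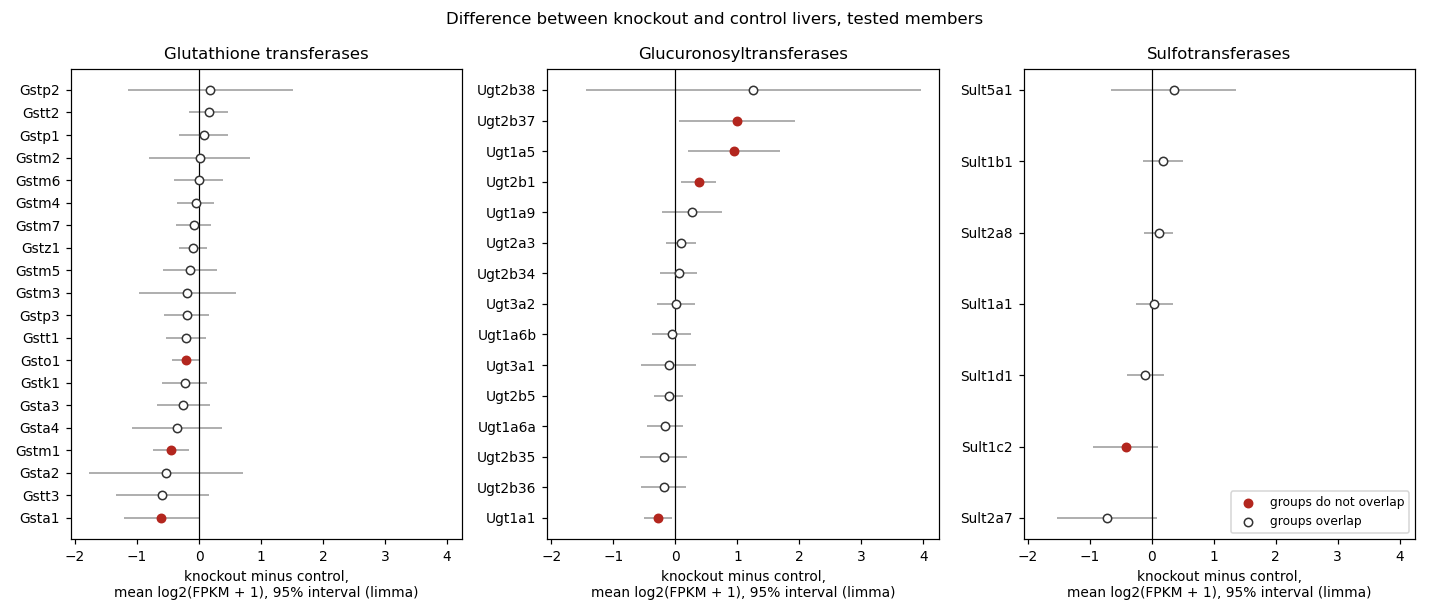
Difference of mean log2(FPKM + 1), knockout minus control, with limma's 95% interval for each tested member; filled red points are the 8 members whose groups do not overlap. Gstm1, Ugt1a1, Gsta1, Gsto1 and Sult1c2 lie to the left of 0 and Ugt2b1, Ugt1a5 and Ugt2b37 to the right, and none passed the adjustment over all genes.

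Control 2 stood apart from the other livers in this group of genes. It was the highest of the 5 livers for 20 of 42 tested members (47.6%) and for 13 of 20 glutathione transferases (65.0%), against 16.8% of all genes tested. Control 1 was highest for 4 of 42 members. Knockout 1 was lowest for 14 of 42 members and knockout 3 for 12 of 42, against 15.1% and 13.6% of all genes. The labels give the library numbers 18668 and 18669 to control 1 and knockout 1, and 18659, 18662 and 18663 to control 2, knockout 2 and knockout 3; what these numbers mark is not stated. Within each of these runs of numbers, knockout was compared with its own control. Then 20 of 42 members were lower in both runs (47.6%) and 8 higher in both (19.0%), where 18.9% of all genes were lower and 40.0% higher in both. Among glutathione transferases 10 of 20 were lower in both runs and 1, Gstp1, was higher in both.

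The pi class, which is more abundant in male than in female mouse liver, supplied the most abundant transferase. Gstp1 (ENSMUSG00000060803.6, chromosome 19, 4035407 to 4037985, minus strand, mm10) had 4099.6 and 3017 FPKM in controls against 4246, 3423 and 3497 FPKM in knockouts. It made up between 41.8% and 56.9% of the family's FPKM, and its groups overlapped, with the lowest value in control 2. Its log2 difference of 0.075 (SE 0.17) turned to -0.15 without control 2. Gstp2, its neighbour at 4040285 to 4046023, was less steady. It had 97.3 and 78.3 FPKM in controls against 208, 101 and 46.3 FPKM in knockouts, so knockouts 1 and 3 lay on either side of both controls. Gstp3, the remaining member of the cluster, stayed between 20.1 and 28.8 FPKM in all livers. Of the 50-base words of the Gstp2 transcript 64.3% also occur in Gstp1, so reads can be split between both genes and their separate values are uncertain. The 3 summed to 4223 and 3124 FPKM in controls against 4481, 3544 and 3567 FPKM in knockouts.

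The alpha class, which detoxifies lipid peroxidation products and contains the most inducible glutathione transferases, was highest in control 2. Gsta3 (chromosome 1, 21240589 to 21265661) had 995 and 1463 FPKM in controls against 921, 1098 and 1024 FPKM in knockouts. Control 1 lay among the knockouts and control 2 above them. Gsta4, which prefers the lipid aldehyde hydroxynonenal, had 45.1 and 79.9 FPKM in controls against 53.6, 33.8 and 56.6 FPKM in knockouts. Gsta2 had 4.86 and 19.2 FPKM in controls against 4.24, 7.92 and 7.99 FPKM in knockouts, and Gsta13 was listed at 0 in control 1, at 3.14 FPKM in control 2 and at 0.17, 0.44 and 0.47 FPKM in knockouts. Control 2 was thus the highest liver for all 4 of these genes. Gsta1 was the only tested alpha member whose groups did not overlap. It had 1.37 and 2.51 FPKM in controls against 0.48, 1.22 and 1.07 FPKM in knockouts, a log2 difference of -0.61 (SE 0.25, limma adjusted p = 0.700), which was -0.32 without control 2. Of the 50-base words of Gsta1 89.7% occur in other genes, 82.9% in the predicted gene Gm3776 and 44.6% in Gsta2, so these low values are also uncertain gene by gene. Summed over the class the groups overlapped, with 1046 and 1568 FPKM in controls against 979.5, 1141 and 1090.3 FPKM in knockouts, and the log2 difference of the sum was -0.26 (SE 0.18).

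Gstm1, the most abundant mu-class transferase here, which conjugates aromatic electrophiles, had the smallest p of all members. Gstm1 (ENSMUSG00000058135.12, chromosome 3, 108012255 to 108017973, minus strand) had 879 and 979 FPKM in controls against 723, 717 and 595 FPKM in knockouts. The mean was 929 ± 71.0 FPKM in controls (SD, n = 2) and 679 ± 72.1 FPKM in knockouts (SD, n = 3). All 3 knockouts lay below both controls, by a log2 difference of -0.46 (SE 0.12, 95% interval -0.75 to -0.16, limma unadjusted p = 0.0083, adjusted p = 0.696). Within the runs of library numbers the difference was -0.28 for knockout 1 against control 1 and -0.58 for knockouts 2 and 3 against control 2. Because the groups did not overlap, both had to be negative, so the runs are no separate check. The other 6 mu genes lie beside it on chromosome 3 and were far less abundant, with means from 9.70 FPKM (Gstm5) to 48.3 FPKM (Gstm6). None of the 6 had groups that did not overlap. Gstm2 had 25.4 and 34.6 FPKM in controls against 31.3, 44.7 and 18.9 FPKM in knockouts, and Gstm3 had 19.1 and 29.7 FPKM in controls against 28.9, 22.9 and 13.5 FPKM in knockouts, so both were lowest in knockout 3. Gstm7 stayed between 39.7 and 49.8 FPKM and Gstm4 between 15.7 and 19.4 FPKM. Of the 50-base words of Gstm1, 23.1% occur in other genes. Summed over all 7 mu genes, the class had 1048 and 1163 FPKM in controls against 912, 895 and 742 FPKM in knockouts. The sums did not overlap (log2 difference -0.38, SE 0.12, limma adjusted p = 0.698, with each class entered as 1 value).

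**Figure D3:**
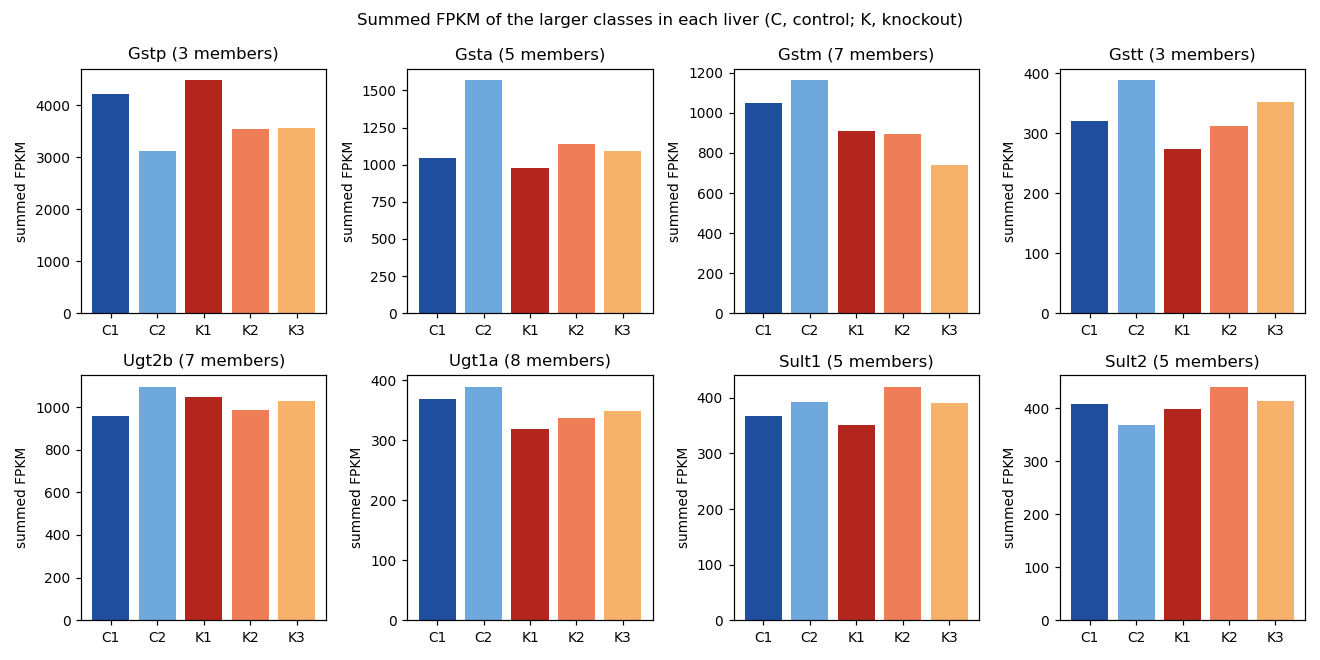
Summed FPKM of the 8 larger classes in each liver, with C1 and C2 the controls and K1 to K3 the knockouts. The Gstm and Ugt1a sums are lower in every knockout than in either control, and the Gsta sum is high in control 2 only.

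The remaining glutathione transferases were single genes or small classes. Gstz1, the maleylacetoacetate isomerase of tyrosine breakdown, was among the steadiest, with 669 and 722 FPKM in controls against 625, 685 and 642 FPKM in knockouts. The theta genes Gstt1, Gstt2 and Gstt3 lie together on chromosome 10. Gstt3 had 22.7 and 44.3 FPKM in controls against 15.4, 22.5 and 25.5 FPKM in knockouts, again highest in control 2. Gsto1, of the omega class that reduces dehydroascorbate and methylated arsenic, had 74.9 and 72.1 FPKM in controls against 60.2, 65.5 and 64.4 FPKM in knockouts. Its groups did not overlap, although the difference was small (log2 -0.21, SE 0.092, limma adjusted p = 0.708). Gstt1 stayed between 206 and 289 FPKM, highest in control 2, and Gstt2 between 52.9 and 67.9 FPKM. Gstk1, a mitochondrial and peroxisomal enzyme, stayed between 117.9 and 174 FPKM and its groups overlapped, as did those of Gstt1 and Gstt2. Gsto2 did not exceed 0.21 FPKM, and Gstt4 and Gsta5 were listed at 0 in all 5 livers. Of the 55 members with an annotated transcript, 21 share no 50-base word with another gene and 13 share at least 50% of theirs.

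Glucuronosyltransferases are encoded mostly in clusters, and the Ugt1a cluster on chromosome 1 is a single locus in which each member has a first exon of its own joined to shared exons. The joins are shown because they set what the values of single Ugt1a members can mean. Each line gives the last 30 bases of a first exon in lower case and the first 30 bases of the shared second exon, which starts at 88215044, in capitals, from GENCODE M21 transcripts on mm10, plus strand.
Ugt1a1: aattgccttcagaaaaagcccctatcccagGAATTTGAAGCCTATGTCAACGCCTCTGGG
Ugt1a5: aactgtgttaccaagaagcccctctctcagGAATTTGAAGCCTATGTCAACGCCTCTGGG
Ugt1a9: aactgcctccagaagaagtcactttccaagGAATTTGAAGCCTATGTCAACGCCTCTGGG
Ugt1a6a: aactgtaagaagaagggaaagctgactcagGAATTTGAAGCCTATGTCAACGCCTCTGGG
Ugt1a6b: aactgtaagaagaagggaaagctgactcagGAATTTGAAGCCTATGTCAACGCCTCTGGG
The first exon of Ugt1a1 spans 88211959 to 88212871 and makes up 41.1% of its transcript. Of its 50-base words 58.2% also occur in other genes of the annotation, so at most reads that touch the first exon tell the members apart. The share was 64.0% for Ugt1a5 and 80.7% for Ugt1a6b. For Ugt1a6a every 50-base word occurs in annotated transcripts of Ugt1a7c, so even reads of its first exon need not set it apart. Its separate value is thus uncertain. Of the words of Ugt1a6b 80.7% occur in Ugt1a7c too, so the low values of Ugt1a7c are also uncertain. The printed ends of the first exons of Ugt1a6a and Ugt1a6b are identical as well.

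Ugt1a1, the enzyme that conjugates bilirubin, was lower in knockouts, and its minor sister Ugt1a5 was higher. Ugt1a1 (ENSMUSG00000089960.1) had 258 and 257 FPKM in controls against 208, 202 and 228 FPKM in knockouts. The mean was 258 ± 1.12 FPKM in controls (SD, n = 2) and 213 ± 13.6 FPKM in knockouts (SD, n = 3). The knockouts lay below both controls, with a log2 difference of -0.28 (SE 0.094, 95% interval -0.50 to -0.049, limma adjusted p = 0.700). Within the runs of library numbers the difference was -0.31 and -0.26, its sign being fixed by groups that do not overlap. Ugt1a5 had 5.41 and 6.91 FPKM in controls against 7.93, 14.5 and 17.8 FPKM in knockouts. The knockouts lay above both controls, knockout 1 only narrowly, with a log2 difference of 0.95 (SE 0.31, 95% interval 0.21 to 1.69, limma adjusted p = 0.700). Ugt1a6a, Ugt1a6b and Ugt1a9 had groups that overlapped. Of these, Ugt1a9 was highest in knockout 2, at 9.40 FPKM against 5.08 to 6.91 FPKM in the other livers. The sum of the locus, most of it Ugt1a1, was lower in each knockout than in either control, with 369.5 and 389 FPKM in controls against 319, 338 and 348 FPKM in knockouts. The log2 difference of the sum was -0.18 (SE 0.090, limma adjusted p = 0.720).

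The 100 bases before the starts of both genes are shown because each first exon has its own promoter and values of the 2 members differed in opposite directions. Sequences are from RefSeq on GRCm38.p6, plus strand, with a match to the HNF1 motif (GTTAAT, any base, then ATT, on either strand) in capitals.
Ugt1a1, chr1:88211859-88211958: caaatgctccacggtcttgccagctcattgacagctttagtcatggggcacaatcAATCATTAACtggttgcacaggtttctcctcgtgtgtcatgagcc
Ugt1a5, chr1:88165912-88166011: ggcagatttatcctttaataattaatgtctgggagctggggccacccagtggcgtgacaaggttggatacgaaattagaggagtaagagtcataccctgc
HNF1 proteins are liver-enriched factors. In the 250 bases before a start, the motif was found in 4 of the 47 members with a RefSeq promoter (Ugt1a1, Ugt1a9, Ugt1a10 and Sult1d1) and in 0.371% of all 32851 promoters. The Ugt1a5 window holds no full match, but its stretch aataattaat differs from the reverse form of the motif in the last base only. The antioxidant response element core TGACNNNGC was found in 3 members (Gsta3, Gstm5 and Gstm7) and in 10.2% of all promoters. The xenobiotic response element core GCGTG was found in 9 members, Gstm1 and Ugt1a5 among them, and in 28.2% of all promoters. The sequence AGGTCA repeated after a gap of 4 bases, an element of CAR and PXR, was found in 0 members and in 0.0152% of all promoters. The STAT5 motif TTCNNNGAA was found in 4 members, Gsta1 among them, and in 7.02% of all promoters. These are matches of letters, both strands searched, and not sites of binding.

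The Ugt2b cluster on chromosome 5, whose enzymes conjugate steroids and drugs, held the largest share of glucuronosyltransferase FPKM. Ugt2b5 (87124960 to 87140318) was the most abundant, with 321 and 367 FPKM in controls against 315, 315 and 325 FPKM in knockouts. Ugt2b36 had 295 and 386 FPKM in controls against 280.4, 334 and 276 FPKM in knockouts. Both were highest in control 2 and their groups overlapped. Ugt2b1 (86916638 to 86926530), which is male-biased in mouse liver, had 159.9 and 149 FPKM in controls against 219, 177 and 208 FPKM in knockouts. The knockouts lay above both controls, with a log2 difference of 0.38 (SE 0.12, 95% interval 0.093 to 0.66, limma adjusted p = 0.700). Within the runs of library numbers the difference was 0.45 and 0.36, its sign again fixed by groups that do not overlap. Summed over the 7 members the cluster did not separate the groups, with 958 and 1094 FPKM in controls against 1046, 989 and 1029 FPKM in knockouts (log2 difference -0.0041, SE 0.098).

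Ugt2b37 and Ugt2b38 had the widest ratio of highest to lowest liver in the cluster, 18.1 and 26.4. Ugt2b38 (87409942 to 87424203) had 6.71 and 2.54 FPKM in controls against 34.4, 1.30 and 23.0 FPKM in knockouts. Knockouts 1 and 3 were above both controls and knockout 2 was below them, so the log2 difference of 1.26 (SE 1.12) lay within the spread and moved to 2.48 without knockout 2 and 0.51 without knockout 1. Ugt2b37 (87240493 to 87254804) had 0.78 and 0.22 FPKM in controls against 3.98, 1.06 and 1.48 FPKM in knockouts. Its groups did not overlap (log2 difference 0.997, SE 0.39, limma adjusted p = 0.700), and the difference was 0.62 without knockout 1. Both genes were thus highest in knockout 1, which is the liver with the most erythroid RNA, and its part in these values was not tested. The promoters of Ugt2b37, Ugt2b38 and the steady Ugt2b5 are shown because a run of 62 bases, in capitals, is identical in the 3 genes and in no other of the 32851 RefSeq promoters. Each line gives 100 bases before the most upstream annotated start on GRCm38.p6, minus strand.
Ugt2b5, chr5:87140341-87140440: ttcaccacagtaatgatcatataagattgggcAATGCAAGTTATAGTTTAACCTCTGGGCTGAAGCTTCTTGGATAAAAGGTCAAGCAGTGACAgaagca
Ugt2b37, chr5:87254805-87254904: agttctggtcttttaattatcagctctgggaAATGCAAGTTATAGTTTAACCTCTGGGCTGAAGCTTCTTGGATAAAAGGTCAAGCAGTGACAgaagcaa
Ugt2b38, chr5:87424204-87424303: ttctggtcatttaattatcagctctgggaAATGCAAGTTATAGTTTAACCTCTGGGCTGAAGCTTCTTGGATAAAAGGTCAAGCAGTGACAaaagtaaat
Although this stretch is shared, mean levels ran from 1.504 FPKM for Ugt2b37 to 13.6 FPKM for Ugt2b38 and 328 FPKM for Ugt2b5. Transcripts are alike too, with 34.1% of the 50-base words of Ugt2b38 and 15.2% of those of Ugt2b37 found in Ugt2b5, so reads can be assigned to either gene and the low values are uncertain.

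**Figure D4:**
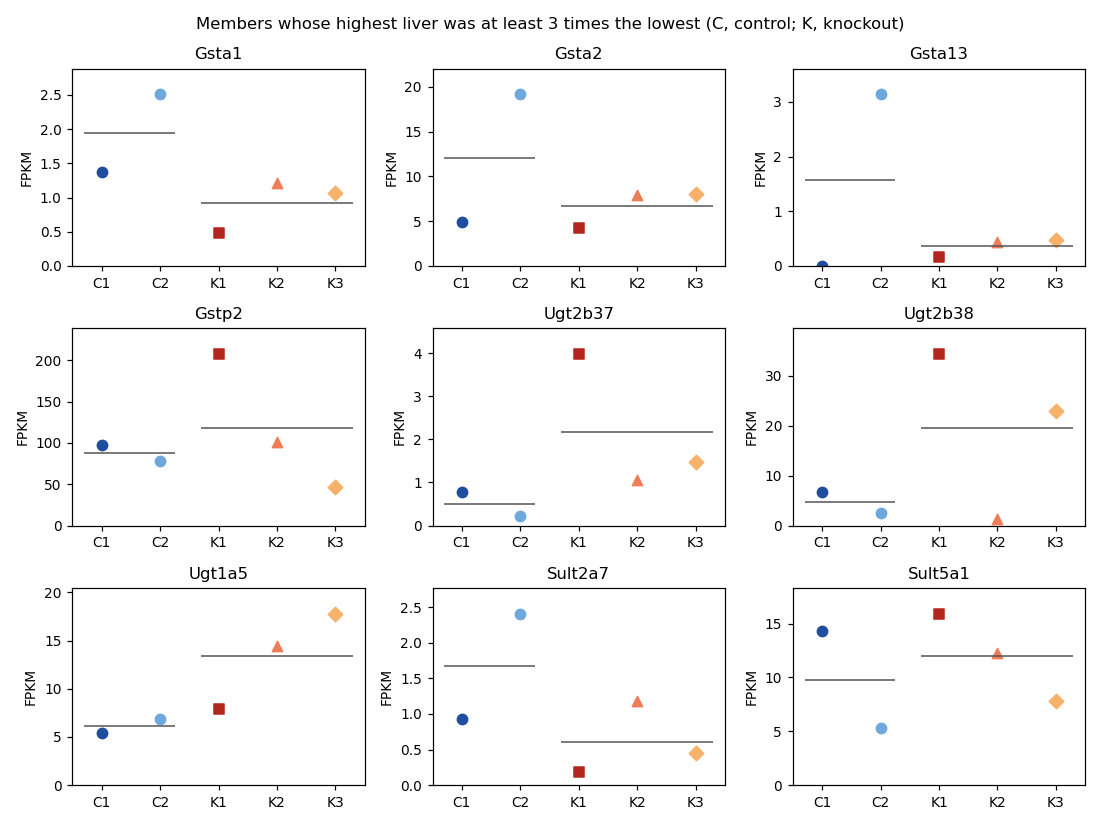
FPKM per liver of the 9 members whose highest liver was at least 3 times the lowest and reached 1 FPKM (or whose lowest was 0), with group means as lines; C1 and C2 are controls and K1 to K3 knockouts. Gsta1, Gsta2, Gsta13 and Sult2a7 are highest in control 2, whereas Ugt2b37, Ugt2b38, Gstp2 and Sult5a1 are highest in knockout 1.

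Of the remaining glucuronosyltransferases, Ugt2a3, Ugt2b34, Ugt2b35, Ugt3a1 and Ugt3a2 had groups that overlapped. Ugt3a2, of a family that uses other sugars than glucuronic acid, stayed between 139 and 179 FPKM. Ugt1a2, Ugt1a10 and Ugt2a2 did not exceed 0.43 FPKM in any liver, and Ugt1a8 and Ugt2a1 were listed at 0 in all 5.

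Sulfotransferase levels came mostly from a pair of genes, neither of which separated the groups. Sult2a8 (chromosome 7, 14410686 to 14446769, minus strand), a bile acid sulfotransferase abundant in mouse liver, had 407 and 366 FPKM in controls against 399, 439 and 413 FPKM in knockouts. It made up between 47.8% and 52.0% of the family's FPKM. Sult1a1 (chromosome 7, 126672865 to 126676432), which sulfates phenols, had 283 and 317 FPKM in controls against 271, 338 and 322 FPKM in knockouts. The 95% interval of the difference was -0.12 to 0.35 for Sult2a8 and -0.26 to 0.34 for Sult1a1. Sult1d1, which acts on catecholamines, had 59.4 and 54.5 FPKM in controls against 55.4, 57.4 and 46.1 FPKM in knockouts. Sult1b1, which acts on thyroid hormones, had 21.6 and 16.5 FPKM in controls against 22.0, 21.7 and 21.1 FPKM in knockouts. These values overlapped in both genes.

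Less abundant sulfotransferases showed wider spreads. Sult1c2 had 2.22 and 4.28 FPKM in controls against 2.20, 1.99 and 2.07 FPKM in knockouts, which do not overlap, but control 1 exceeded knockout 1 by only 0.02 FPKM. Its log2 difference of -0.42 (SE 0.22, limma adjusted p = 0.726) was -0.062 without control 2. Sult2a7, the neighbour of Sult2a8, had 0.93 and 2.41 FPKM in controls against 0.19, 1.18 and 0.45 FPKM in knockouts. Sult5a1 (chromosome 8, 123140192 to 123158315) had 14.3 and 5.28 FPKM in controls against 15.9, 12.3 and 7.79 FPKM in knockouts, with control 2 lowest. The groups overlapped in both. Sult1e1, the estrogen sulfotransferase, had 0.23 FPKM in each control and 0.63, 0.16 and 0.29 FPKM in knockouts. The female-predominant Sult2a1, Sult2a2 and Sult3a1 did not exceed 0.11 FPKM in any liver, and Sult2b1, Sult4a1 and Sult6b1 did not exceed 0.10 FPKM. Sult6b2 was listed at 0.62 FPKM in control 1 and at 0 in the other livers, and Sult1c1, Sult2a3 to Sult2a6 and Sult3a2 were listed at 0 in all 5 livers.

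Donors of the conjugated groups were described from lists of 9 or 12 genes each. Of 10 tested genes of glutathione synthesis and recycling 7 were lower (median -0.073). Gss, glutathione synthetase, had 39.6 and 43.9 FPKM in controls against 32.7, 34.9 and 37.1 FPKM in knockouts, which do not overlap. Ggct and Oplah, which act in glutathione breakdown, were higher in all 3 knockouts than in either control. Ggct had 5.76 and 4.29 FPKM in controls against 8.56, 5.94 and 7.74 FPKM in knockouts. For UDP-glucuronic acid supply 4 of 9 genes were higher (median -0.0082), and for mercapturic acid formation, which processes glutathione conjugates, 4 of 7 tested genes (median 0.033). For PAPS supply 7 of 8 tested genes were higher (median 0.058, beside 0.06 over all genes). Papss2, the main PAPS synthase of liver, had 44.9 and 45.1 FPKM in controls against 46.5, 63.0 and 57.5 FPKM in knockouts, which do not overlap. In these 4 lists 0 genes passed limma's adjusted threshold of 0.05, and Ggct and Oplah lay below an unadjusted p of 0.05. Of 7 tested deconjugation enzymes, which undo the reactions, 5 were higher (median 0.12), with 0 past the adjusted and 1 below the unadjusted threshold in limma. Groups did not overlap in 2 higher and 1 lower of the 10 glutathione genes and in 1 higher of the 8 for PAPS supply. Beside all these counts, 64.2% of all genes were higher and 7.00% lay below the unadjusted threshold. Groups did not overlap in 18.9% of all genes, higher, and 6.38%, lower.

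Among 17 tested regulators of conjugation genes 4 were lower and 13 higher (median 0.13), with 0 past limma's adjusted threshold and 3 below an unadjusted p of 0.05. Among all genes 64.2% were higher and 7.00% lay below that p. The 3 regulators were Nr1i3, Nr1i2 and Foxa2, the first pair lower and Foxa2 higher. Nr1i3, which encodes CAR, had 152 and 154 FPKM in controls against 113, 119.5 and 81.2 FPKM in knockouts (log2 difference -0.56, SE 0.17, limma adjusted p = 0.700). Nr1i2, which encodes PXR, had 27.1 and 27.4 FPKM in controls against 20.5, 22.9 and 24.1 FPKM in knockouts (log2 difference -0.27, SE 0.11, limma adjusted p = 0.700). The groups did not overlap in either. Among the 17 regulators they did not overlap in 3 higher and 2 lower genes, beside 18.9% higher and 6.38% lower among all genes. Ahr (4.28 and 5.64 FPKM in controls, 3.94 to 6.34 FPKM in knockouts) and Nfe2l2, which encodes NRF2 (20.4 and 29.5 FPKM in controls, 23.4 to 25.9 FPKM in knockouts), had groups that overlapped. Foxa2 had 11.2 and 12.5 FPKM in controls against 14.1, 22.1 and 25.1 FPKM in knockouts, all above the controls.

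Phase I and reductase targets of CAR, PXR and AHR were lower in 12 of 15 tested genes (median -0.24), and NRF2 targets outside the transferases in 13 of 20 (median -0.069). In limma 0 genes of either list passed the adjusted threshold, and 0 and 3 lay below an unadjusted p of 0.05. Among all genes 35.8% were lower and 7.00% lay below that p. The CAR, PXR and AHR targets summed to 3156 and 4661 FPKM in controls against 2621, 3574 and 3291 FPKM in knockouts, so control 2 was highest here as well and control 1 lay among the knockouts. Groups did not overlap in 3 of the 15 tested CAR, PXR and AHR targets, all lower, beside 6.38% lower among all genes. They were Cyp2c37, Cyp2c50 and Cyp2c54. Cyp2c50 had 333 and 383 FPKM in controls against 297, 289 and 321 FPKM in knockouts. Among NRF2 targets, Ephx1, the microsomal epoxide hydrolase, had 142 and 177 FPKM in controls against 107, 137 and 112 FPKM in knockouts, which do not overlap. Osgin1, an oxidative stress-induced growth inhibitor, was the NRF2 target with the smallest p and was higher, with 68.1 and 45.6 FPKM in controls against 107, 73.8 and 85.8 FPKM in knockouts (log2 difference 0.65, SE 0.22, limma adjusted p = 0.700). Groups did not overlap in 3 higher and 4 lower of the 20 tested NRF2 targets, beside 18.9% higher and 6.38% lower among all genes. Abcc3, an exporter of glucuronides into blood, had 52.0 and 53.3 FPKM in controls against 34.2, 26.2 and 44.4 FPKM in knockouts. Its groups did not overlap, and all 3 knockouts were lower. Among the 12 tested transporters groups did not overlap in 1 higher and 1 lower gene. Of the 12 tested transporters 6 were higher and 6 lower (median 0.0025), and in limma 0 passed the adjusted threshold and 1, Abcc3, lay below an unadjusted p of 0.05.

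Other conjugating enzymes gave a mixed picture, with 7 of 15 tested genes higher (median -0.011), 0 past limma's adjusted threshold and 3 below an unadjusted p of 0.05. Below that p lay 7.00% of all genes. Inmt, an N-methyltransferase, had 672 and 802 FPKM in controls against 448, 392 and 587 FPKM in knockouts. Acsm3, a medium-chain acyl-CoA synthetase, had 65.4 and 108 FPKM in controls against 51.2, 49.8 and 58.3 FPKM in knockouts. Tpmt, which methylates thiopurines, had 50.8 and 61.0 FPKM in controls against 64.5, 76.95 and 79.7 FPKM in knockouts. The groups did not overlap in these 3 genes. In the list of 15 tested genes they did not overlap in 3 lower and 1 higher. Among all genes the shares were 6.38% lower and 18.9% higher. Mgst3, a membrane-bound glutathione transferase that the symbol rule leaves out, had 13.5 and 17.4 FPKM in controls against 6.42, 9.86 and 9.02 FPKM in knockouts (log2 difference -0.81, SE 0.20, limma adjusted p = 0.675). All 3 knockouts lay below both controls. In the list that holds Mgst3, 5 genes were tested, of which 4 were higher (median 0.04), with 0 past limma's adjusted threshold and Mgst3 below an unadjusted p of 0.05. Of those 4, Mgst1 is the other membrane-bound transferase, with 3251 and 3598 FPKM in controls against 3577, 3780.1 and 3362 FPKM in knockouts, which overlap. The others, Gstcd, Clic4 and Vars1, are not known mainly as glutathione transferases: Clic4 is a chloride channel protein and Vars1 a valyl-tRNA synthetase.

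Markers of other liver cells and of zonation were set beside these values. For comparison, 64.2% of all genes tested were higher in knockouts (median 0.06). Of the 17 tested male-biased genes outside the transferases 16 were higher in knockouts (median 0.40). They summed to 30281 and 21899 FPKM in controls against 41932, 32262 and 35660.3 FPKM in knockouts, lowest in control 2 and highest in knockout 1. Abundant genes fill this sum, and they differ in direction between the controls. Serpina1e had 12384 FPKM in control 1 and 3169 FPKM in control 2, whereas Mup20 had 9150 and 12886 FPKM. Gstp1 and the male-biased Ugt2b1 were lowest in control 2 and highest in knockout 1, an order that not every listed gene shares. Of 7 tested female-biased genes 5 were lower (median -0.097), and 4 of the 18 listed were at 0 in all livers. Pericentral markers were lower in 5 of 12 tested genes (median 0.11) and periportal markers in 8 of 13 (median -0.039). The cholangiocyte list summed to 37.0 and 47.3 FPKM in controls against 83.5, 57.7 and 63.9 FPKM in knockouts. Kupffer cell markers were higher in 10 of 10 genes (median 0.23), with sums of 245 and 413 FPKM in controls against 337, 431 and 409 FPKM in knockouts. Sinusoidal endothelial markers were lower in 5 of 10 genes (median -0.0082), with sums of 153 to 213 FPKM over the livers. Lyve1 among them had 7.34 and 8.92 FPKM in controls against 3.90, 7.32 and 10.5 FPKM in knockouts. Stellate cell markers were lower in 8 of 10 (median -0.098), with sums of 188 to 278 FPKM. Lymphocyte and granulocyte markers summed to between 5.63 and 12.1 FPKM, with 3 of 3 tested genes higher (median 0.38). Of 9 kidney, gut and adrenal markers 2 were tested and both were lower (median -0.28). Fabp2 made up most of their sum of 55.9 to 86.1 FPKM, at 53.3 to 82.3 FPKM, and the others did not exceed 2.62 FPKM. The gut genes Sis and Vil1 were highest in control 1, at 1.10 and 0.79 FPKM against at most 0.01 and 0.13 FPKM in the other livers, and control 1 was also the liver with Sult6b2. Of 6 pancreas markers 4 were at 0 in all livers, and Cela1, the tested one, made up most of the sum, at 42.7 to 65.0 FPKM (log2 difference 0.23). Hepatocyte markers were lower in 6 of 10 genes (median -0.13), and erythroid markers higher in 5 of 5 tested genes (median 1.68). In these lists 0 genes passed limma's adjusted threshold. The part of these cell types and of sex-biased expression in the transferase values was not tested.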

How the data were processed

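RNA from 5 mouse livers was extracted with Trizol and sequenced as paired ends, per the labels' protocols. The deposited values are FPKM per gene symbol in 2 tables, identical in all 33589 rows, of which 1 was used; HISAT2, StringTie, DESeq2 and the build mm10 are listed in the submitters' processing notes, without versions or settings. FPKM keep no read counts, so the depth is unknown and no count test was run; 220 rows repeat a symbol. Libraries were grouped by their titles. Members and gene lists were chosen with earlier results of these data known. Genes with a mean of at least 1 FPKM were tested with limma 3.58.1 (R 4.3.3) as log2(FPKM + 1), two-sided, with a trended prior variance, genotype as the only term, all 5 libraries and Benjamini-Hochberg adjustment over 10820 genes; a log2 difference on this scale understates the change of low genes. The test was checked on simulated data. Heg1 was tested with a filter of 0.1 FPKM.

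Values in every liver are given for the 4 most abundant members of each family, tested members with an unadjusted p below 0.05 or with groups that do not overlap and a difference of at least 0.3, members whose highest liver is at least 3 times the lowest and reaches 1 FPKM, and those next to the filter; members of small classes were added after their values were seen. Of each of the 11 pathway lists, at most 3 genes whose groups do not overlap are named, besides the receptor genes. Coordinates and 50-base words are from GENCODE M21 (55 of 56 members matched, all but Gsta13) and promoters from RefSeq (GRCm38.p6); motifs were chosen with the results known. Alternatives were other pseudocounts, filters, scalings and variance models, a block by replicate number, a term for the run of library numbers, sums over classes and leaving out each library.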

Additional observations from a re-analysis of the deposited data

How the results depend on the processing

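Across 17 alternatives 0 members passed the adjusted threshold. Of all genes tested 5 passed it with the replicate block, and 0 to 1 when a library was left out, the 1 without control 1. The count of members higher at an unadjusted p below 0.05, 3 as reported, was 6 with the replicate block. It was 1 without knockout 1, 3 without knockout 2 and 2 without knockout 3. The count of lower members, 2 as reported, was 4 with a filter of 0.1 FPKM, 4 with median-of-ratios scaling, 5 with quantile normalization, 7 with the replicate block, 7 with a term for the run of library numbers and 0 to 9 without a library, with 9 without control 1, 0 without control 2 and 1 without knockout 1. Among all 10820 genes tested, 572 were higher and 185 lower at that p as reported. These counts were 310 and 362 with median-of-ratios scaling and 279 and 321 with quantile normalization. They were 660 and 306 with the replicate block and 658 and 252 with the term for library runs. Without knockouts 1, 2 and 3 in turn they were 571 and 193, 482 and 187, and 459 and 183. With a filter of 0.1 FPKM they were 658 and 262 of 14401 genes. Leaving out a control leaves only 1, so counts at that p are not given for it. The members' median lay between -0.17 and 0.0022 and the number of lower members between 20 and 30 when a library was left out, with 0.0022 and 20 without control 2. The Heg1 difference turned to -0.012 with quantile normalization and lay between -0.020 and 0.11 without a library. The causes were not tested.

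Without control 2 the difference, with the far end of its range over single left-out libraries in brackets, was -0.15 for Gstp1 (0.30), 0.024 for Gsta3 (-0.53), 0.0044 for Ugt2b36 (-0.38), 0.35 for Gsta2 (-1.43) and -0.29 for Sult5a1 (0.9994), all opposite to the values over 5 libraries. Without knockout 1 it was -0.024 for Gstp1 and -0.34 for Gstp2 (0.73). For Sult1a1 it was -0.024 with median-of-ratios scaling, -0.036 without control 1 and -0.020 without knockout 2 (0.14 without knockout 1). Entering a class as 1 sum gave 0.026 for Sult1, 0.11 for Sult2, -0.0041 for Ugt2b and -0.18 for Ugt1a. These signs are opposite to those of the single genes Sult1d1, Sult1c2, Sult2a7, Ugt2b1, Ugt2b37, Ugt2b38 and Ugt1a5. The most abundant members fill each sum, so the sums do not measure these genes one by one. Without a library the range was -0.53 to -0.36 for Gstm1, -0.33 to -0.24 for Ugt1a1, 0.31 to 0.46 for Ugt2b1, 0.72 to 1.26 for Ugt1a5 and -0.89 to -0.32 for Gsta1. With pseudocounts of 0.1 and 5 the difference of Ugt2b37 was 1.88 and 0.36.

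The replicate block pairs only numbers 1 and 2, leaves out knockout 3 in effect, and has 1 residual degree of freedom. Deviations from the group means correlated at 0.227 between control 1 and knockout 1 and at 0.196 between control 2 and knockout 2, and same-numbered livers fall in the same run of library numbers. Knockout 3, in the run of control 2, correlated with control 2 at 0.031. The deviations of the 2 controls are mirror images of each other, so these values are not separate signs of pairing. The labels do not say what those numbers mark, nor that a replicate number stands for a shared animal, litter or day, so the livers were not treated as pairs. The deposited values hold no counts, so no limit from sequencing depth can be given for low members.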
